A study of Homo sapiens with 6 samples.

Results

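The matrix metalloproteinases (MMPs), the ADAM and ADAMTS metalloproteinases, their tissue inhibitors (TIMPs) and *RECK* were examined in HBECs, an established, immortalized line of human bronchial epithelial cells with the genotype WT. Members were the genes whose names in the deposited table consist of MMP, ADAM or ADAMTS and a number alone (with an A or B after it for some MMPs), together with *TIMP1* to *TIMP4* and *RECK*, and 70 of the 61228 gene names met this rule. There were 24 MMP, 22 ADAM, 19 ADAMTS and 5 inhibitor genes. All 6 libraries came from cells exposed to cockroach extract (CRE), an allergen preparation. In 3 of them, CRE was given alone. In the other 3 it was combined with VAF347, a small-molecule agonist of the aryl hydrocarbon receptor (AhR). The paper's methods describe VAF347 as a pre-treatment given before CRE. Exposure lasted 24 h, and libraries were made from poly(A)-enriched RNA. Cells without CRE, and cells with VAF347 alone, are not among these libraries. The labels do not say whether replicates came from separate cultures, so p-values measure only the spread between these samples.

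The active proteases among these hold a zinc ion in the catalytic site. Of the 22 ADAM genes, 8 encode proteins without that site, 3 of which were tested, and 2 are pseudogenes. MMPs cut collagens, laminins and other matrix proteins, most ADAMs sit in the cell membrane and release the outer parts of other membrane proteins, and ADAMTS proteases are secreted and cut proteoglycans, procollagens or von Willebrand factor. TIMPs block the active site of many of them, *RECK* encodes a membrane-anchored inhibitor, and in airway epithelium the balance of these proteins bears on matrix turnover, repair and growth factor release.

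The libraries held 8873160 to 10750283 counts, and the third CRE library stood apart from the other CRE libraries. The mean chi-square per gene between it and the others was 8.96 to 9.21, against 1.77 to 2.55 for the other replicate pairs. Of the 8 epithelial markers, *EPCAM* had 3121 to 3534 counts and *KRT8* 14899 to 18931 counts in a library, *KRT5* had 108 to 169, and *TP63* reached at most 1. *KRT19* was lower with VAF347 (log2 fold change -0.38, edgeR adjusted p = 0.0265). *KRT5* and *CDH1* were lower without overlap in CPM but did not pass (log2 fold changes -0.37 and -0.18, edgeR adjusted p = 0.0773 and 0.173). *KRT18* was higher without overlap (0.11, adjusted p = 0.330), and *EPCAM*, *KRT8* and *CLDN4* overlapped. Of 5 markers of differentiated airway cells, *SCGB1A1*, which marks club cells, and *MUC5AC*, which marks goblet cells, were at 0 in every library. *MUC5B* had at most 2 counts, *FOXJ1* had 7 to 21 and *TUBB4B* had 7948 to 9542. The groups did not overlap in CPM for *TUBB4B*, which was higher with VAF347 (log2 fold change 0.16, edgeR adjusted p = 0.167).

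Of the 70 members, 54 had at least 1 count and 16 had 0 counts in all 6 libraries. The 25 members that never passed 3 counts in a library, the 16 at 0 among them, could not be compared at this depth. The filter on low counts left 30 members among the 15373 genes tested (8 MMP, 10 ADAM, 8 ADAMTS and 4 inhibitor genes), and the other 40 were not tested. Of the 30, 3 passed both thresholds, an adjusted p under 0.05 together with a log2 fold change beyond 0.5 in either direction (edgeR quasi-likelihood test, Benjamini-Hochberg adjustment over all genes tested): *ADAMTS15* was higher with VAF347, and *ADAMTS9* and *TIMP3* were lower. This was 10% of the members tested, and 2.21% of all genes tested passed the same thresholds, 0.501% higher and 1.71% lower.

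With no fold threshold, 6 of the 30 members passed, 1 higher and 5 lower, against 5.42% of all genes tested (1.35% higher and 4.07% lower). The added members were *MMP14*, *ADAM9* and *ADAM15*, all lower with VAF347. With an unadjusted p in place of the adjusted one, 5 of the 30 passed with the fold threshold, 1 higher and 4 lower, against 4.87% of all genes tested (1.61% higher and 3.27% lower). At an unadjusted p with no fold threshold it was 14 of the 30, 2 higher and 12 lower, against 20.8% of all genes tested (8.87% higher and 11.9% lower). On the CPM scale, counts scaled to library size by TMM, the groups did not overlap for 16 of the 30 members, 3 higher and 13 lower, against 27.3% of all genes tested (12.5% higher and 14.8% lower). The median log2 fold change was -0.18 over the 30 members and 0.01 over all genes tested, with 9 members above 0 and 21 below.

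**Figure D1:**
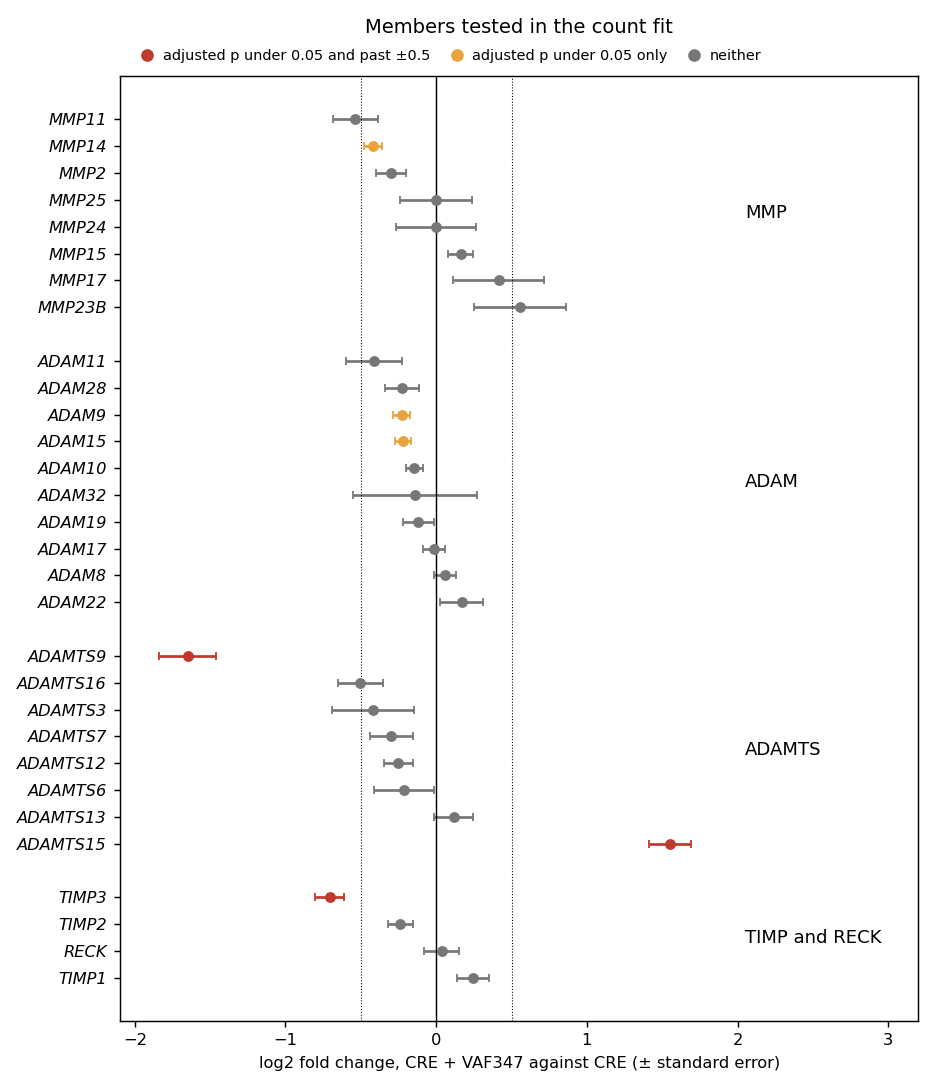
Log2 fold change of the 30 tested members, CRE + VAF347 against CRE, with its standard error, grouped by family; dotted lines mark the fold threshold of 0.5 in each direction. *ADAMTS9* at -1.65 and *ADAMTS15* at 1.55 lie farthest from 0, and *TIMP3* at -0.71 is the inhibitor that passed both thresholds.

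The members differed widely in level. On the TPM scale, which sums to 1000000 in a library and is adjusted for length, 26 members averaged over 1 TPM across the 6 libraries. The highest levels were those of *ADAM9*, with 353 ± 33.8 TPM in CRE and 287 ± 4.90 TPM in CRE + VAF347 (SD, n = 3), *MMP14*, with 342 ± 34.5 and 256 ± 10.4 TPM, and *ADAM10*, with 308 ± 8.12 and 264 ± 5.19 TPM. These 3 are membrane-anchored proteases, and neighbours in this order differed in CRE by less than the SD of *MMP14*. *ADAM15*, at 189 ± 44.0 TPM in CRE, and *TIMP2*, at 166 ± 29.8 TPM, followed and did not differ from each other beyond their spread.

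*TIMP1* had 81.2 ± 6.05 TPM in CRE, and *ADAM17* and *ADAM8* had 49.7 ± 2.04 and 47.5 ± 5.91 TPM. *TIMP3* was far below the other 2 inhibitors of its family with counts, at 11.3 ± 1.16 TPM in CRE and 6.74 ± 0.67 TPM in CRE + VAF347. *ADAMTS9* and *ADAMTS15*, the members with the largest fold changes, were among the lowest of the members tested, at 2.38 ± 0.50 and 0.894 ± 0.083 TPM in CRE. The summed level of all 70 members was 1584, 1584 and 1861 TPM with CRE and 1429, 1429 and 1432 TPM with CRE + VAF347. The sum was lower in every CRE + VAF347 library, and the third CRE library was the highest.

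**Figure D2:**
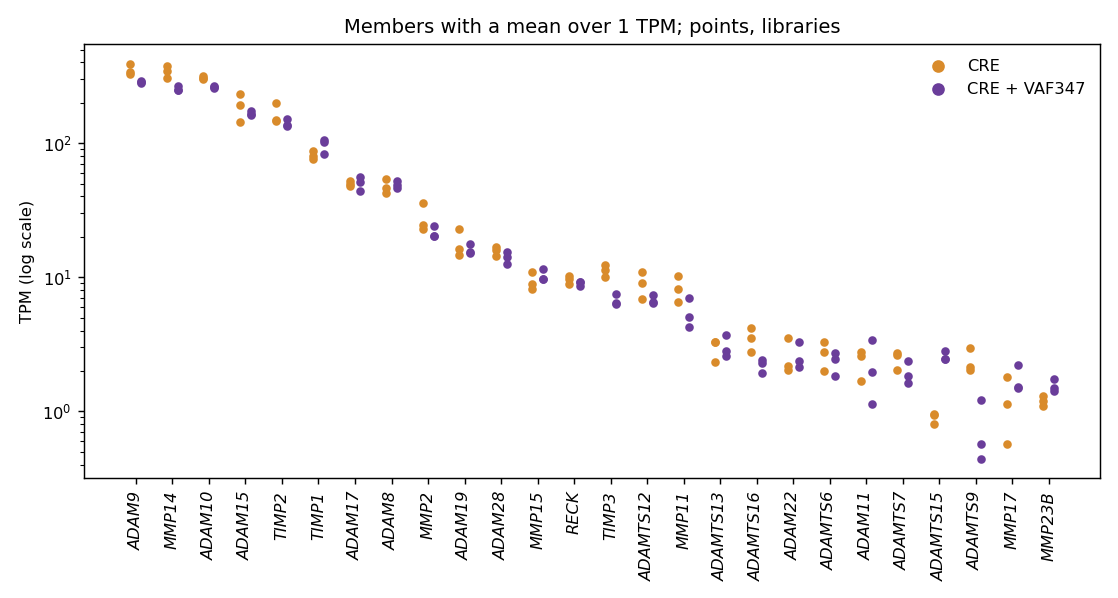
TPM of the 26 members with a mean over 1 TPM, on a log scale, ordered by mean level; each point is 1 library. *ADAM9*, *MMP14* and *ADAM10* lead, and *ADAMTS15* is the low member whose CRE + VAF347 points lie well above its CRE points.

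*ADAMTS9* (ENSG00000163638.13) lies on the minus strand at chr3:64515654-64688000 (GRCh38, GENCODE v44) and encodes a secreted protease that cuts the proteoglycans versican and aggrecan. The CRE libraries held 59, 74 and 70 counts of *ADAMTS9*, and the CRE + VAF347 libraries held 19, 22 and 19. All 3 CRE + VAF347 libraries were low and the groups did not overlap. Its level was 6.64 ± 0.58 CPM in CRE and 2.11 ± 0.21 CPM in CRE + VAF347 (SD, n = 3), 3.13-fold lower with VAF347, with a log2 fold change of -1.65 (SE 0.19, edgeR adjusted p = 0.000639). The antisense genes that overlap it, *ADAMTS9-AS1* and *ADAMTS9-AS2*, had at most 1 count in a library.

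*ADAMTS15* (ENSG00000166106.4, plus strand, chr11:130448645-130476645) encodes another secreted protease of the proteoglycan-cutting group. Its counts were 41, 50 and 45 with CRE, and 128, 120 and 123 with CRE + VAF347. Each CRE + VAF347 library was above each CRE library. The level rose from 4.45 ± 0.39 to 13.1 ± 1.13 CPM (SD, n = 3), 2.93-fold, with a log2 fold change of 1.55 (SE 0.14, edgeR adjusted p = 0.000143). The nearest member on the chromosome, *ADAMTS8*, had at most 1 count.

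The 2 proteases thus moved in opposite directions in the same libraries. The ratio of *ADAMTS15* to *ADAMTS9* counts, which is not adjusted for length, was 0.695, 0.676 and 0.643 in the CRE libraries. In the CRE + VAF347 libraries it was 6.74, 5.45 and 6.47. The other 5 proteoglycan-cutting members, *ADAMTS1*, *ADAMTS4*, *ADAMTS5*, *ADAMTS8* and *ADAMTS20*, were not tested and had at most 4 counts in a library.

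**Figure D3:**
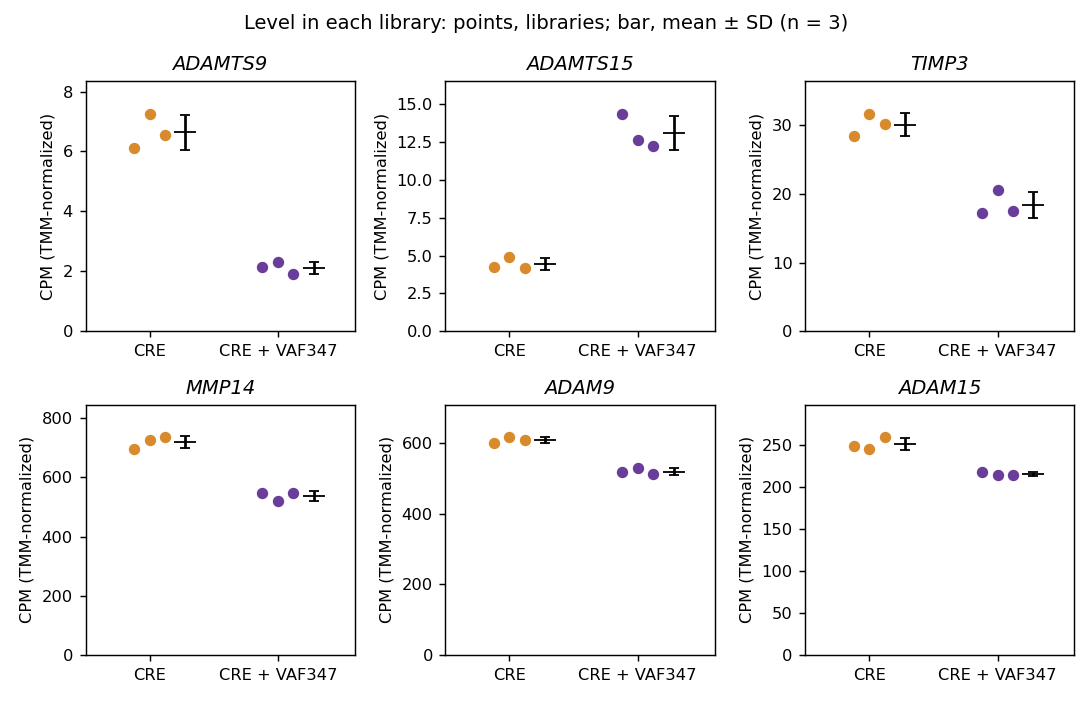
CPM in each library for the 6 members with an adjusted p under 0.05, with the mean ± SD of each group (n = 3) beside the points; each axis starts at 0. The CRE and CRE + VAF347 points do not overlap in any panel, and the gap is widest relative to the level for *ADAMTS9* and *ADAMTS15*.

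The other 6 ADAMTS genes tested did not pass. *ADAMTS12*, the ADAMTS gene with the highest level per length, had 29.0 ± 2.99 CPM in CRE and 24.4 ± 1.57 CPM in CRE + VAF347 (log2 fold change -0.25, SE 0.10, edgeR adjusted p = 0.167). *ADAMTS16* counts were 82, 105 and 111 in CRE and 71, 57 and 67 in CRE + VAF347, which did not overlap after scaling to CPM. Its log2 fold change was -0.50 (SE 0.15, edgeR adjusted p = 0.0825). The adjusted p was 0.0302 in edgeR with no filter on low counts and 0.339 in DESeq2. The fit with no filter also gave *ADAMTS15* an adjusted p of 9.57e-19 at nearly the same fold change. Its p-values are therefore not directly comparable with those of edgeR after the filter. *ADAMTS6* and *ADAMTS13*, the latter known for cutting von Willebrand factor, had log2 fold changes of -0.22 (SE 0.20) and 0.12 (SE 0.13), with edgeR adjusted p-values of 0.576 and 0.650. The gene *REXO4*, on the opposite strand, overlaps *ADAMTS13*. It stood at 109 CPM in CRE and 112 CPM in CRE + VAF347, scaled to the library total without TMM. The sources used here do not say whether strand was used in counting.

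*MMP14* (ENSG00000157227.14, plus strand, chr14:22836560-22849041) encodes a membrane-type MMP that cuts collagen at the cell surface and, together with TIMP2, activates the MMP2 proenzyme. With CRE its counts were 6716, 7387 and 7865, and with CRE + VAF347 they were 4861, 4937 and 5475. All CRE + VAF347 libraries were lower than all CRE libraries. The level fell from 718 ± 20.6 to 537 ± 15.7 CPM (SD, n = 3), with a log2 fold change of -0.42 (SE 0.06, edgeR adjusted p = 0.00208). Among the members with an adjusted p under 0.05 it was the nearest to the fold threshold from below.

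None of the 8 MMPs tested passed both thresholds in edgeR. At an unadjusted p under 0.05 the count past the fold threshold was 1 of 8, *MMP11*, which was lower, against 4.87% of all genes tested (3.27% lower). With no fold threshold it was 3 of 8, all lower, against 20.8% (11.9% lower). DESeq2 and limma on log2 CPM also called 0 past both thresholds. *MMP11*, which encodes a stromelysin that is activated inside the cell, had the smallest adjusted p of the members that missed. Its counts were 104, 132 and 125 in CRE and 60, 76 and 96 in CRE + VAF347, which did not overlap after scaling to CPM (log2 fold change -0.54, SE 0.15, edgeR adjusted p = 0.0606). Without the third CRE library its adjusted p was 0.0475, and with no filter on low counts it was 0.00767. In DESeq2 it was 0.209, and in edgeR with an offset for GC content it was 0.106. Leaving out each library in turn gave adjusted p-values of up to 0.185.

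*MMP2*, a gelatinase that cuts type IV collagen, had 555, 531 and 744 counts in CRE and 451, 457 and 470 in CRE + VAF347, and the third CRE library was well above the others. Its log2 fold change was -0.30 (SE 0.10, edgeR adjusted p = 0.109), and -0.17 without that library (adjusted p = 0.154). With no filter on low counts its adjusted p was 0.00953, and in DESeq2 it was 0.200. *MMP15*, another membrane-type MMP, had 34.6 ± 1.83 CPM in CRE and 38.7 ± 3.10 CPM in CRE + VAF347 (log2 fold change 0.16, SE 0.08, edgeR adjusted p = 0.296). The other 4 MMPs tested had log2 fold changes of -0.00 to 0.56 and none passed; *MMP23B*, at the top of that range, is nearly identical to the pseudogene *MMP23A*, and the split of reads between them is uncertain.

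Many MMPs known from inflamed or injured airways were near the detection limit. *MMP1*, an interstitial collagenase, had 2 counts in 1 CRE library and 0 in the other 5. *MMP3*, a stromelysin, had 1, 2 and 0 counts in CRE and 0 in all CRE + VAF347 libraries, and *MMP10* had 0 throughout. *MMP7*, the epithelial matrilysin, had 6, 4 and 2 counts in CRE and 0, 5 and 0 in CRE + VAF347, so the groups overlapped.

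*MMP9*, the other gelatinase, had 5, 7 and 9 counts in CRE and 6, 7 and 4 in CRE + VAF347, and *MMP13* had 6, 2 and 5 against 1, 5 and 2. Neither gene passed the filter on low counts, and the groups overlapped in both. A modest difference was not detectable at this depth, where 3 counts correspond to 0.280 to 0.337 CPM. *MMP1*, *MMP3*, *MMP7*, *MMP10* and *MMP13* sit with *MMP8*, *MMP12*, *MMP20* and *MMP27* in a run of 9 genes at chr11:102520508-102955732, and none of the 9 passed the filter or had more than 8 counts in a library.

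*ADAM9* and *ADAM15* encode membrane-anchored proteases with disintegrin domains. *ADAM9* counts were 5784, 6279 and 6524 in CRE and 4598, 5037 and 5125 in CRE + VAF347. *ADAM15* counts were 2403, 2501 and 2774 in CRE and 1938, 2036 and 2154 in CRE + VAF347. For both genes every CRE + VAF347 library was below every CRE library.

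The level of *ADAM9* fell from 608 ± 8.71 to 519 ± 9.37 CPM (log2 fold change -0.23, SE 0.06, edgeR adjusted p = 0.0359), and that of *ADAM15* fell from 251 ± 7.24 to 216 ± 1.94 CPM (log2 fold change -0.22, SE 0.06, edgeR adjusted p = 0.0439). Both calls were lost when any library other than the third CRE library was left out, with adjusted p-values of 0.0679 to 0.142 for *ADAM9* and 0.0792 to 0.160 for *ADAM15*. With an offset for GC content the adjusted p of *ADAM15* was 0.209 and that of *ADAM9* was 0.00886. *TM2D2*, which overlaps *ADAM9* on the opposite strand, had 64.3 CPM in CRE and 71.4 CPM in CRE + VAF347, without TMM.

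The 2 best-known sheddases did not pass. *ADAM17*, which encodes the enzyme that releases TNF and several EGF receptor ligands, had 842, 941 and 997 counts in CRE and 877, 837 and 839 in CRE + VAF347, and the groups overlapped in CPM. Its log2 fold change was -0.01 (SE 0.07, edgeR adjusted p = 0.938), and its sign changed in 2 of the 6 fits without a library and on the TPM scale. *ADAM10*, which encodes an enzyme that cuts Notch receptors and E-cadherin, had 304 ± 4.23 CPM in CRE and 275 ± 8.63 CPM in CRE + VAF347, which did not overlap (log2 fold change -0.15, SE 0.06, edgeR adjusted p = 0.171).

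The other 6 ADAM genes tested had log2 fold changes of -0.41 to 0.17 and did not pass. Of the 10 ADAM genes tested, 0 passed both thresholds in edgeR, in DESeq2, in limma on log2 CPM or at an unadjusted p under 0.05. With no fold threshold, 4 of the 10 had an unadjusted p under 0.05, all lower, where 20.8% of all genes tested did (11.9% lower).

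*TIMP3* (ENSG00000100234.12, plus strand, chr22:32801705-32863041) encodes the inhibitor that binds to the matrix and blocks ADAM17 and several ADAMTS proteases as well as MMPs. The 3 CRE libraries gave 274, 323 and 323 counts, and the 3 CRE + VAF347 libraries gave 153, 196 and 175. Each CRE + VAF347 library was below each CRE library. The level fell from 30.1 ± 1.66 to 18.4 ± 1.90 CPM (SD, n = 3), 1.63-fold lower, with a log2 fold change of -0.71 (SE 0.10, edgeR adjusted p = 0.00190). It was not called by glmTreat, which tests whether the change exceeds 0.5 on the log2 scale. *SYN3*, which overlaps *TIMP3* on the opposite strand, had at most 9 counts in a library.

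*TIMP2*, the inhibitor that also takes part in MMP2 activation, had 3289, 3368 and 4405 counts in CRE and 2685, 2804 and 3230 in CRE + VAF347, with the third CRE library well above the others. Its log2 fold change was -0.24 (SE 0.08, edgeR adjusted p = 0.135), and -0.13 without that library (adjusted p = 0.133). With no filter on low counts the adjusted p was 0.0150, and in DESeq2 it was 0.136. *TIMP1* had 311, 348 and 300 counts in CRE and 354, 382 and 320 in CRE + VAF347, and the groups overlapped in CPM (log2 fold change 0.24, SE 0.11, edgeR adjusted p = 0.220). *RECK* had 10.4 ± 0.63 CPM in CRE and 10.6 ± 0.47 CPM in CRE + VAF347 (log2 fold change 0.04, SE 0.12, edgeR adjusted p = 0.891), with its sign reversed on the TPM scale, and *TIMP4* had 0 counts throughout.

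Within the TIMPs, *TIMP3* made up 4.22%, 4.62% and 4.30% of the summed TPM with CRE and 2.52%, 3.08% and 2.69% with CRE + VAF347, and these shares did not overlap. The TIMP sum itself was 240 to 289 TPM in CRE and 240 to 249 TPM in CRE + VAF347. The ratio of *MMP14* TPM to this sum was 1.28, 1.39 and 1.30 in the CRE libraries. It was 1.01, 1.03 and 1.12 in the CRE + VAF347 libraries, lower in each.

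Because VAF347 is an agonist of AhR, which binds DNA with ARNT at the core GCGTG, the promoters of 2 members that fell are shown. RefSeq promoter sequences (GRCh38.p14) were matched for 40 of the 70 members, and *ADAMTS9*, *ADAMTS15* and *ADAM9* were not among them. *ADAM15*, whose RefSeq start lies inside its GENCODE gene model, is not shown, and its window held 0 GCGTG. The 250 bases before the RefSeq start of each gene, on the plus strand and written from 5′ to 3′, cover chr22:32801455-32801704 for *TIMP3* and chr14:22836335-22836584 for *MMP14*, the last 25 of which lie past the GENCODE start. Capitals mark the GCGTG core.
TIMP3: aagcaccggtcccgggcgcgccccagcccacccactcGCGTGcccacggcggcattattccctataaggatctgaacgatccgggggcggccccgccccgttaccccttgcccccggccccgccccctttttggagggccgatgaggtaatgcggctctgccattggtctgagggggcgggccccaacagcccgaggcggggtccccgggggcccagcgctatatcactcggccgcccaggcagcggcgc
MMP14: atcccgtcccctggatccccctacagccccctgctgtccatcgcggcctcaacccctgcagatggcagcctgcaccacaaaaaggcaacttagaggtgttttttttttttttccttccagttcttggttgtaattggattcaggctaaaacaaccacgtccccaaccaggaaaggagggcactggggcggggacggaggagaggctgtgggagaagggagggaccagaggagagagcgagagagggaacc
The *TIMP3* stretch holds 1 GCGTG, at position -213 from the RefSeq start, and the *MMP14* stretch holds 0 on either strand. In the same 250 bases before the RefSeq start, GCGTG on either strand was present in 32.2% of 35116 promoters. It was present in 13 of the 41 entries of members (31.7%). The AP-1 motif TGANTCA was absent from both stretches, and was present in 6.57% of all promoters and 9.76% of the entries of members.

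Beyond the members, 64 genes with roles around these proteases were listed by what they are known to do, and 45 of them were tested. The list was drawn up with earlier results of these data known, so the shares below describe it and are not an independent test. Past both thresholds 2 were higher and 2 were lower. This was 8.89% of the 45, against 2.21% of all genes tested (0.501% higher and 1.71% lower). All 4 were among the 22 tested substrates (18.2% of these). *EREG* and *AREG*, which encode EGF receptor ligands released by ADAM17, rose with log2 fold changes of 1.14 (SE 0.09, edgeR adjusted p = 6.1e-05) and 0.76 (SE 0.12, adjusted p = 0.00531). *EREG* had 165, 153 and 180 counts in CRE and 324, 358 and 336 in CRE + VAF347, and *AREG* had 141, 127 and 135 against 231, 188 and 215, with no overlap in either gene.

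*THBS1*, which encodes the matrix glycoprotein thrombospondin-1, fell from 12055, 12646 and 16551 counts to 7877, 7958 and 7619 (log2 fold change -0.70, SE 0.09, edgeR adjusted p = 0.00144). *ICAM1*, an adhesion molecule shed from the cell surface, fell from 464, 622 and 723 counts to 343, 359 and 270 (log2 fold change -0.78, SE 0.14, edgeR adjusted p = 0.00994). In both genes every CRE + VAF347 library lay below every CRE library. *THBS1* in the third CRE library was the highest of the 6.

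With no fold threshold, 2 of the 45 related genes rose and 8 fell. Together they were 22.2% of the 45, against 5.42% of all genes tested (1.35% higher and 4.07% lower). Besides *THBS1* and *ICAM1*, the lower genes were *HSPG2* (perlecan, log2 fold change -0.49), *MET* (-0.47), *SDC1* (syndecan-1, -0.22), *TFPI2* (a protease inhibitor of the matrix, -0.47), *LRP1* (an endocytic receptor that clears proteases, -0.45) and *ADAMTSL4* (-0.43). Of the 12 tested genes for the convertases, iRhoms and tetraspanins that mature or carry these proteases, among them *FURIN*, *RHBDF2* and *TSPAN14*, 0 passed in edgeR with or without the fold threshold. At an unadjusted p under 0.05, 2 of the 12 were past the fold threshold and 3 passed without it, all lower. The shares of all genes were the same 4.87% and 20.8% (3.27% and 11.9% lower), and DESeq2 called 0. The proteoglycans versican (*VCAN*), aggrecan (*ACAN*) and brevican (*BCAN*), substrates of ADAMTS9 and its relatives, did not pass the filter.

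Some markers of other cell types were lower with VAF347 in the same libraries. Of 4 endothelial markers, *CDH5* and *VWF* were lower with VAF347 (log2 fold changes -0.84 and -1.45, edgeR adjusted p = 0.00119 and 0.0107), *KDR* was at 0.14 (adjusted p = 0.683), and *PECAM1* had at most 3 counts. The summed level of the 4 was 9.41 to 10.4 TPM in CRE and 6.03 to 7.46 TPM in CRE + VAF347. The 7 fibroblast markers summed to 19.4 to 20.8 TPM in CRE and 14.9 to 19.0 TPM in CRE + VAF347, with *PDGFRA*, *DCN* and *LUM* at 0, and no fibroblast marker tested had an adjusted p under 0.05. The 6 leukocyte markers summed to 25.9 to 29.0 and 17.8 to 23.9 TPM, with *PTPRC* at no more than 2 counts, and none of those tested passed either. The sums were not tested. The cells were an established line, and the libraries do not show which cells these transcripts came from. In bulk libraries, a smaller share of expressing cells cannot be told apart from less RNA per cell. The part of these markers in the falls of *ADAMTS9*, *TIMP3* and *MMP14* was not tested.

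The calls depended on the unit. On the counts, *ADAMTS9*, *ADAMTS15* and *TIMP3* stayed past both thresholds with each library left out in turn, with log2 fold changes of -1.73 to -1.58, 1.47 to 1.63 and -0.80 to -0.67, and *MMP14* kept an adjusted p of 0.0242 or less. With limma on log2(TPM + 1) none of the 26 members tested passed, and 9 had an unadjusted p under 0.05, as did 10.75% of all genes in that fit. The adjusted p-values were 0.188 for *ADAMTS9*, 0.124 for *ADAMTS15*, 0.0943 for *TIMP3* and 0.131 for *MMP14*, with no change of sign. For the within-group SDs given here, CPM was scaled to the library total without TMM. The within-group SD of *ADAMTS9* was 0.133 on the log2 CPM scale and 0.571 on the log2 TPM scale. The length behind its TPM, relative to its mean over libraries, ran from 0.551 to 1.63. For *ADAMTS15* the SDs were 0.120 and 0.124, for *TIMP3* 0.117 and 0.144, and the medians over 11458 genes with at least 50 counts in every library were 0.102 and 0.156.

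**Figure D4:**
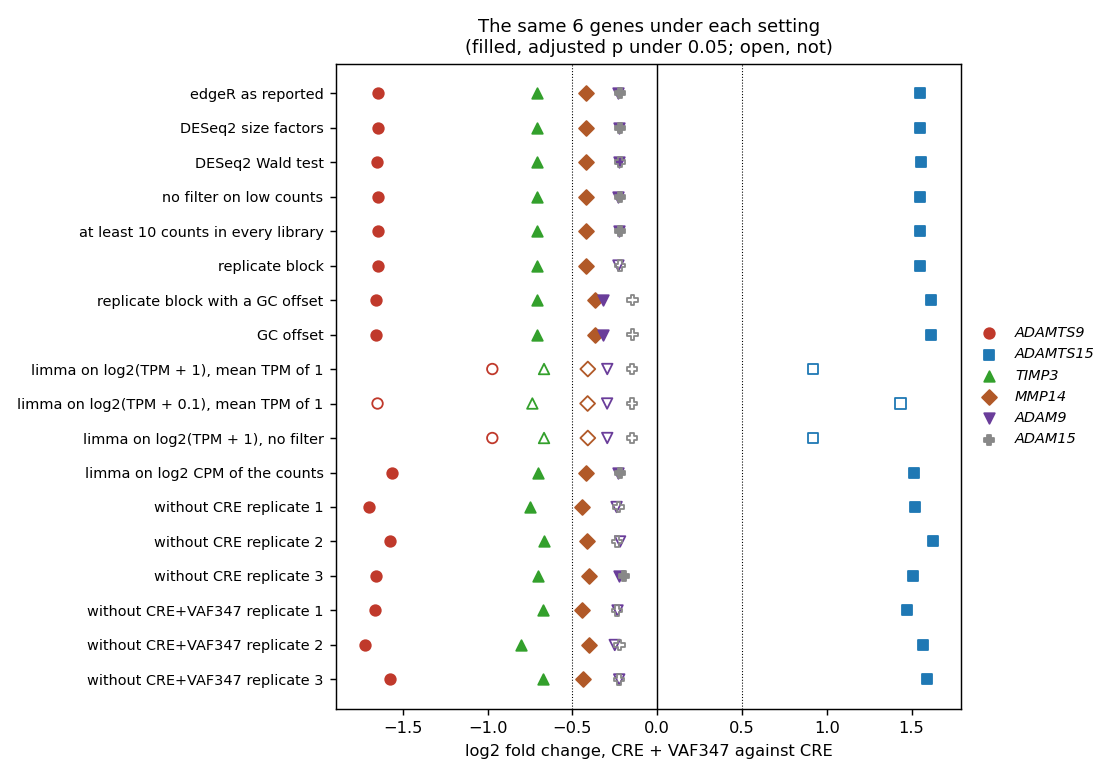
Log2 fold change of the 6 members with an adjusted p under 0.05 (horizontal axis) under each setting; filled symbols have an adjusted p under 0.05 in that setting and open symbols do not. All 6 genes keep their sign throughout, and all are open in the 3 fits on TPM.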

How the data were processed

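The 6 RNA-seq libraries, 3 of CRE and 3 of CRE + VAF347, were grouped by their labels. 0 table columns were left unmatched. The authors made the deposited expected counts and the deposited TPM values with Salmon from paired-end reads. The submitters' notes name hg38, and the version, the annotation and the use of strand are not given in the sources used here. The authors' table of DESeq2 results (log2 fold changes, p-values, a score and a mean signal) was not used. Members and lists were chosen with earlier results of these data known.

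The expected counts, of which 31.1% were not whole among genes with any count, were rounded and tested with edgeR 4.0.16 in R 4.3.3 (quasi-likelihood test after filterByExpr and TMM, all 6 libraries, no covariate). Named members were those with an adjusted p under 0.05, the inhibitors, 10 textbook proteases, the 4 with the highest TPM in each protease family, and those just outside each threshold. Alternatives were DESeq2 1.42.0, other scaling, filters and thresholds, a GC offset, the replicate block, limma 3.58.1 on TPM, and leaving out each library. Groups of 3 allow no exact permutation p under 0.1. A floor of 3 counts covers counting error only.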

Additional observations from a re-analysis of the deposited data

How the results depend on the processing

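Over all genes, 340 passed both thresholds, 77 higher and 263 lower. With no filter on low counts this became 598 (187 higher and 411 lower), with the unadjusted p 749, with glmTreat 47, and with limma on TPM 84 with a filter (34 higher and 50 lower with a pseudocount of 1, 32 and 52 with 0.1) and 32 without one (20 and 12). For members past both thresholds, 3 became 5 with no filter (adding *ADAMTS16* and *MMP11*), 5 with the unadjusted p, 2 with glmTreat and 0 in the 3 fits on TPM; 6 at any fold became 10 with no filter (adding those genes, *MMP2* and *TIMP2*) and 0 on TPM. The 4 related genes became 1 on TPM, 7 with the unadjusted p and 1 with glmTreat. Leaving out each library gave 201 (without the third CRE + VAF347 library) to 380 genes, 3 to 4 members past both thresholds, 4 to 7 members at any fold, and 4 to 7 related genes, where *ADAMTSL4*, *HSPG2* and *LRP1* were added without the first CRE library. The sign of *ADAM17* turned to 0.0139 and 0.0141 on TPM, and with a library left out it ran from -0.0915 to 0.0302, with 0.0025 without the third CRE library, and *RECK* turned to -0.0948 and -0.104 on TPM. In edgeR with no filter the adjusted p was 9.57e-19 for *ADAMTS15* (SE 0.16) and 5.13e-09 for *TIMP3* (SE 0.11), at nearly the same fold changes as with the filter. The adjusted p-values of that fit are therefore not directly comparable with those after the filter. The cause of these changes was not tested. Limma on log2 CPM was chosen after seeing the data and called the same 3 members. DESeq2 gave an adjusted p of 0.0514 for *ADAM15*.

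Deviations of same-numbered libraries correlated at 0.0529, 0.0327 and 0.0154, and each correlated best with its own number. These values are small, and with groups of 3 they cannot settle whether the replicate numbers pair the samples. With the replicate block, 319 genes and 3 members passed both thresholds, and 4 members at any fold, with adjusted p-values of 0.0527 for *ADAM9* and 0.0660 for *ADAM15*.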
